A study of Mus musculus with 16 samples.

Results

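Genomic imprints are DNA methylation marks laid down in 1 parental germ line, so that the maternal and paternal copies of a gene are used unequally in the offspring. At maternally methylated loci the mark is acquired in the oocyte, usually at a promoter or just inside a gene. It is erased in early germ cells of both sexes and, in males, is not put back, so that sperm carry these loci unmethylated. The 9 loci described here are *Peg3*, *Snrpn*, *Mest*, *Peg10*, *Kcnq1ot1*, *Plagl1*, *Grb10*, *Igf2r* and *Nnat*, out of 49943 genes in the RefSeq gene table. They were chosen by name as maternally methylated imprinted genes, with earlier results of these data known. A locus is the gene between its outer bounds plus 10 kb on each side (assembly GRCm38), 1023.4 kb for the 9 together. DNA methylation was not measured in these files, so the label could not be checked.

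Accessible chromatin was mapped by ATAC-seq, in which a transposase cuts and tags open DNA, in male germ cells of the testis carrying the Mvh-Venus germ-cell reporter. The 16 samples form 8 groups of 2, namely germ cells of *Morc1* (+/-) or *Morc1* (-/-) mice at E13.5 and E16.5 of embryonic life and at P0 and P3 after birth. *Morc1* encodes an ATPase of transposon silencing, and its (+/-) animals, written het below, serve as the reference for the (-/-) knockouts (KO); no wild-type group was analysed here. The authors deposited 1 peak list per group. The het and KO lists were identical at P0 and at P3, so each was used once, without a genotype, which leaves 6 distinct lists. A list gives the position of each peak, with no height and no value per sample. Peaks were 501 bp wide except for 0 to 3 per list. The read depth is unknown, no replicate error can be given for any value, and no test across samples could be made. Whether the samples of a group came from separate animals is not given in the sources used here. The lists held 39559 to 67258 peaks. A start peak (within 1000 bp of an annotated start, or of an outer end where no start was listed) was found in all 6 lists at 4 of 5 germ-cell markers (*Ddx4*, *Dazl*, *Dnd1*, *Mael*). *Nanos3*, the other germ-cell marker, had one in the E13.5 KO list only. None of 4 Sertoli-cell and none of 3 macrophage markers had a start peak in any list. Among 5 Leydig and interstitial markers *Cyp11a1* had one in all 6 lists, and so did *Tek* among 3 endothelial markers. Over protein-coding genes with a listed start, 55% had a start peak in all 6 lists. A region open in all 6 lists lay in the gene window (bounds plus 10 kb) of 4 germ-cell, 2 Sertoli-cell and 2 Leydig markers. The count was 1 for endothelial and 0 for macrophage markers, against 66.3% of all protein-coding gene windows.

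The peaks at the 9 loci numbered 19 in E13.5 het, 21 in E13.5 KO, 32 in E16.5 het, 32 in E16.5 KO, 37 at P0 and 23 at P3. Merging peaks of different lists that overlapped by at least 1 bp gave 55 distinct regions, of 107032 in the genome. Of these 55, 13 regions were open in all 6 lists, and 8 of the 9 loci held at least 1 of them. The ninth, *Mest*, had a region at its internal start that was open in every list except E16.5 het. A region open in all 6 lists was present in 66.3% of all protein-coding gene windows drawn by the same rule.

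The sequences that follow are the start windows on which the description turns, from 250 bases before to 30 after each annotated start, 5′ to 3′ in the direction of the gene, from RefSeq (GRCm38.p6). *Kcnq1ot1* and *Plagl1* were covered by a peak in all 6 lists, *Mest* in 5 and *Peg3* in 1. The 3 *Snrpn* windows were covered in none. Capitals mark the hexamer TGCCGC or its reverse complement GCGGCA, the core bound by ZFP57, a zinc finger protein that protects imprints when the site is methylated.

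*Kcnq1ot1*, chr7:143296518-143296797, minus strand: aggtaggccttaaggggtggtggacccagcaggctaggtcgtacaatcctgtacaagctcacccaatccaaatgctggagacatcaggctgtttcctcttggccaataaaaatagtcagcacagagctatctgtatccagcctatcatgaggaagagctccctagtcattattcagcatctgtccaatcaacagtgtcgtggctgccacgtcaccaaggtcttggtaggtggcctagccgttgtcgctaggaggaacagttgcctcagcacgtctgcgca
*Plagl1*, chr10:13090582-13090861, plus strand: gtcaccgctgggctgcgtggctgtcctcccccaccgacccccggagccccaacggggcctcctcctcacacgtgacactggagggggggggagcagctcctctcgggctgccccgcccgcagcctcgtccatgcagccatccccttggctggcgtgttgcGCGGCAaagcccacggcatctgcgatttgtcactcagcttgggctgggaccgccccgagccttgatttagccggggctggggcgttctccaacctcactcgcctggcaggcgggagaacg
*Mest* internal start, chr6:30737803-30738082, plus strand: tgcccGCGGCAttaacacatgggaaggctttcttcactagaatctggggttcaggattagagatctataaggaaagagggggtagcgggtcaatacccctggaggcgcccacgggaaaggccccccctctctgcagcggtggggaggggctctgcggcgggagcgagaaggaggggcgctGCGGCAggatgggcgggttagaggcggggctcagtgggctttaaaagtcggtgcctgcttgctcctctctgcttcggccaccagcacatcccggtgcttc
*Peg3*, chr7:6730390-6730669, minus strand: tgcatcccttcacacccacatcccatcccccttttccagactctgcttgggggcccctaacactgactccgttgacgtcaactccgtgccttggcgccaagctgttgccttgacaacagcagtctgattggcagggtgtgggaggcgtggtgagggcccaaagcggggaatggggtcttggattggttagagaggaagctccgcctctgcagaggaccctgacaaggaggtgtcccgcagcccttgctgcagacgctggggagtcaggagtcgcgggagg
*Snrpn* innermost start, chr7:60005170-60005449, minus strand: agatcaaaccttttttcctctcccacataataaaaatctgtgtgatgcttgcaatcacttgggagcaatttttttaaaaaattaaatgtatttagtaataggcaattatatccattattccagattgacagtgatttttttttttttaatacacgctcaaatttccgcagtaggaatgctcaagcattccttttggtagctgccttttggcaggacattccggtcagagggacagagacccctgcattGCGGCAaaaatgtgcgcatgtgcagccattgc
*Snrpn* outermost start, chr7:60450148-60450427, minus strand: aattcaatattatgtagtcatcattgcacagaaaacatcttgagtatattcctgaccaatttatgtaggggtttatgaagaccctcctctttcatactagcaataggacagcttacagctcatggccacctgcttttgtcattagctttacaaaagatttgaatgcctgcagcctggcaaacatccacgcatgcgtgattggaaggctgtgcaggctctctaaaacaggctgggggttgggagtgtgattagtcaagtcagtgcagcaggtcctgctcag
*Snrpn* second outermost start, chr7:60140196-60140475, minus strand: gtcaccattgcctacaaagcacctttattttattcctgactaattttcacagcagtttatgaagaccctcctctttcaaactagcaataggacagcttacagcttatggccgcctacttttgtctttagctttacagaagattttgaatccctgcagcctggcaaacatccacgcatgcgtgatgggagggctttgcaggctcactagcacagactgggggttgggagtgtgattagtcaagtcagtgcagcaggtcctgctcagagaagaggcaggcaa

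The hexamer was searched on both strands in 300 base windows, from 250 bases before to 50 after the start. It was found in 6 of 14 member windows (42.9%), against 11.6% of all 32851 windows in the table. The 6 windows belong to *Snrpn* (innermost start), *Mest* (2 starts 3 bp apart whose windows overlap), *Plagl1*, *Grb10* (outer start) and *Nnat*. Member windows had a median of 11 CpG dinucleotides and 58.3% G+C, against 7 and 52.7% over all windows. The hexamer contains a CpG, and *Kcnq1ot1* and *Igf2r*, which lacked it, were open at the start in all 6 lists. *Peg10* is not in the sequence table and is placed by its outer bounds, reading its lower bound as the start.

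**Figure D1:**
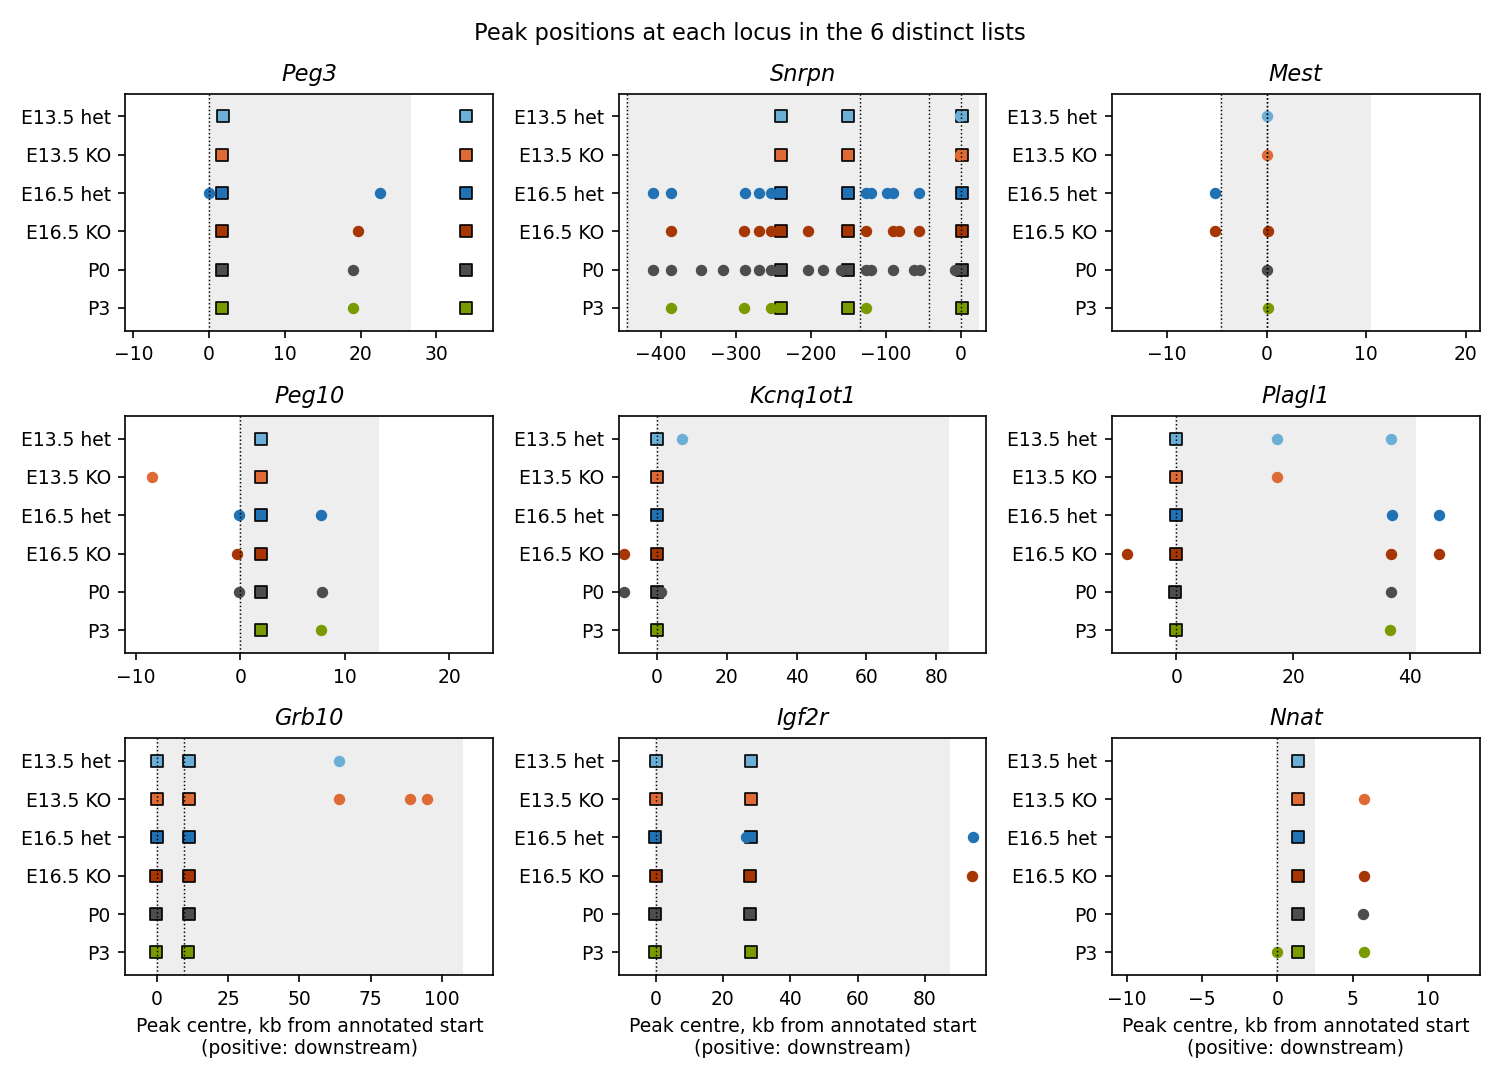
Centre of every peak (x axis, kb from an annotated start, positive downstream; innermost start for *Snrpn* and *Mest*) in each of the 6 lists (y axis), with black-edged squares for the 13 regions open in all 6 lists, circles for other peaks, grey for the gene and dotted lines for annotated starts. Each of 8 panels has a column of squares near a start, and *Mest* has none. Most circles of *Snrpn* are at E16.5 and P0 and lie upstream of its innermost start, as does most of the locus.

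At 4 loci the constant region lay on the start itself. *Kcnq1ot1* is the antisense long non-coding RNA that silences neighbouring genes such as *Cdkn1c* in cis. Its region, chr7:143296329-143296935, held 1 peak per list, centred 32, 121, 138, 110, 56 and 58 bp upstream of the start in E13.5 het, E13.5 KO, E16.5 het, E16.5 KO, P0 and P3. The 6 centres thus fell within 106 bp of one another. *Plagl1* encodes a zinc finger transcription factor and shares its promoter with the non-coding *Hymai*. Its region, chr10:13090321-13091043, had centres 39, 54, 102, 68, 261 and 96 bp upstream of the start in the same order of lists, with the P0 peak the farthest out. *Igf2r* encodes the receptor that clears the growth factor IGF2. The region over its start, chr17:12769398-12770112, had centres from 156 bp upstream (P3) to 58 bp downstream (E13.5 KO). *Grb10* encodes an adaptor that dampens insulin and IGF signalling. The region at its outer start, chr11:12037079-12037986, had centres from 316 bp upstream (E16.5 KO) to 91 bp downstream (E16.5 het), a range of 407 bp that was the widest of the 13 regions.

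A further constant region inside *Igf2r* marked the start of *Airn*, the antisense non-coding RNA that represses *Igf2r* on the paternal copy and whose promoter is the imprinted region of the locus. It spanned chr17:12741147-12742043, inside *Igf2r* as drawn by its outer bounds. Relative to the *Airn* start, the peak centres lay 115, 86, 149, 482, 390 and 145 bp downstream in E13.5 het, E13.5 KO, E16.5 het, E16.5 KO, P0 and P3. The peaks of E16.5 KO and P0 therefore sat farther into *Airn* than those of the other 4 lists. Both the sense and the antisense start of the locus were accessible in all 6 lists.

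At 5 loci a constant region lay just downstream of an annotated start. *Peg3*, a paternally expressed zinc finger gene, had one at chr7:6728368-6728982, centred 1801 bp inside the gene in E13.5 het and 1687 to 1704 bp inside in the other 5 lists. *Snrpn*, which encodes a spliceosomal protein and carries the imprinting centre of the Prader-Willi and Angelman domain, had one at chr7:60004007-60004665, 784 to 942 bp inside its innermost start. *Grb10* had a second constant region at chr11:12025742-12026639. Its centres lay 1979, 1964, 1966, 1938, 1905 and 1582 bp inside the internal start in E13.5 het, E13.5 KO, E16.5 het, E16.5 KO, P0 and P3, with P3 apart from the rest. *Peg10*, derived from a retrotransposon and needed in the placenta, had one at chr6:4748996-4749557, 1940 to 2001 bp above its lower bound. *Nnat*, which encodes a small membrane protein and lies within *Blcap*, had one at chr2:157561181-157561720, 1353 to 1392 bp inside its start.

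The 4 of these with an annotated strand (*Peg3*, *Snrpn*, *Grb10*, *Nnat*) all lay on the transcribed side. In the genome, of 1117 regions open in all 6 lists that lay within 2500 bp of an annotated start without covering it, 616 (55.1%) were downstream. This comparison was chosen after the positions were seen, and no test was made of it.

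Peaks at the starts of *Peg3*, *Peg10* and *Nnat* were less constant. At *Peg3* the window around the start was met in E16.5 het only, by a peak at chr7:6730217-6730717 that also covers the start of *Usp29*, transcribed the other way. At *Peg10* a peak over the lower bound, chr6:4746785-4747409, was present in E16.5 het, E16.5 KO and P0 and missing at E13.5 and P3. *Sgce*, the divergent neighbour, shares that peak and so had the same pattern in 6 of 6 lists. At *Nnat* a start peak, chr2:157559791-157560291, was present at P3 only. *Peg3os*, antisense to *Peg3*, matched the *Peg3* pattern in 6 of 6 lists through a different peak, chr7:6707578-6708078, at its outer end. No gene on the other lists shared the *Nnat* pattern.

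Counted by a window of 1000 bp, 6 of 9 loci had a start peak in all 6 lists, namely *Snrpn*, *Mest*, *Kcnq1ot1*, *Plagl1*, *Grb10* and *Igf2r*. Over all genes with a listed start the share was 41.5%, and over protein-coding genes 55%; *Peg10*, which has no listed start, was judged by its outer ends. By list the count was 6, 6, 8, 7, 7 and 7 of 9 in E13.5 het, E13.5 KO, E16.5 het, E16.5 KO, P0 and P3. The corresponding shares of protein-coding genes were 60.5%, 60.9%, 61.5%, 62.3%, 63.8% and 60%. With a window of 2000 bp all 9 loci had a start peak in all 6 lists, against 43.3% of all genes and 56.6% of protein-coding genes. With a window of 500 bp 5 of 9 loci had one in all 6 lists, and by list the count was 5, 5, 7, 6, 6 and 6. No share over all genes is given for the 500 bp window.

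*Mest*, a paternally expressed gene of the hydrolase family, had peaks at different annotated starts in different lists. The internal start region, chr6:30737855-30738430, held peaks centred 64, 78, 127, 52 and 111 bp past the start in E13.5 het, E13.5 KO, E16.5 KO, P0 and P3. E16.5 het had no peak there. Both E16.5 lists had a peak near the outer start (chr6:30732627-30733132), 629 bp before it in het and 624 bp before it in KO. No other list had the upstream peak. Regions open in every list except E16.5 het made up 0.682% of regions in the genome and 1 of the 55 here.

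*Snrpn* has 4 annotated starts, of which only the innermost, shared with *Snurf*, was near a constant region. None of the 3 upstream starts had a peak within 1000 bp in any list. Their 300 base windows were 79.7% to 81.4% identical to one another and 50.6% to 52.9% identical to the innermost window. How the authors placed reads with several matches is not given in the sources used here, and its part in the missing peaks was not tested. A further peak upstream of the innermost start, chr7:60006131-60006657, was present in both E13.5 lists and in no later one. Start windows with 4 or fewer CpG, as these 3 have, were met by a peak in none of the lists in 91.8% of cases genome-wide.

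CpG content ordered the member windows only in part. The 3 windows with 20 or more CpG (*Plagl1*, *Grb10* outer start, *Igf2r*) were covered in all 6 lists, as were 76.0% of such windows in the genome. Of 4 windows with 10 to 19 CpG (*Peg3*, *Nnat* and the 2 overlapping *Mest* windows) 0 were covered in all 6 lists, against 53.4% genome-wide. Of 4 with 5 to 9 CpG, 1 was covered in all 6, that of *Kcnq1ot1* with 9 CpG, against 10.6%.

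**Figure D2:**
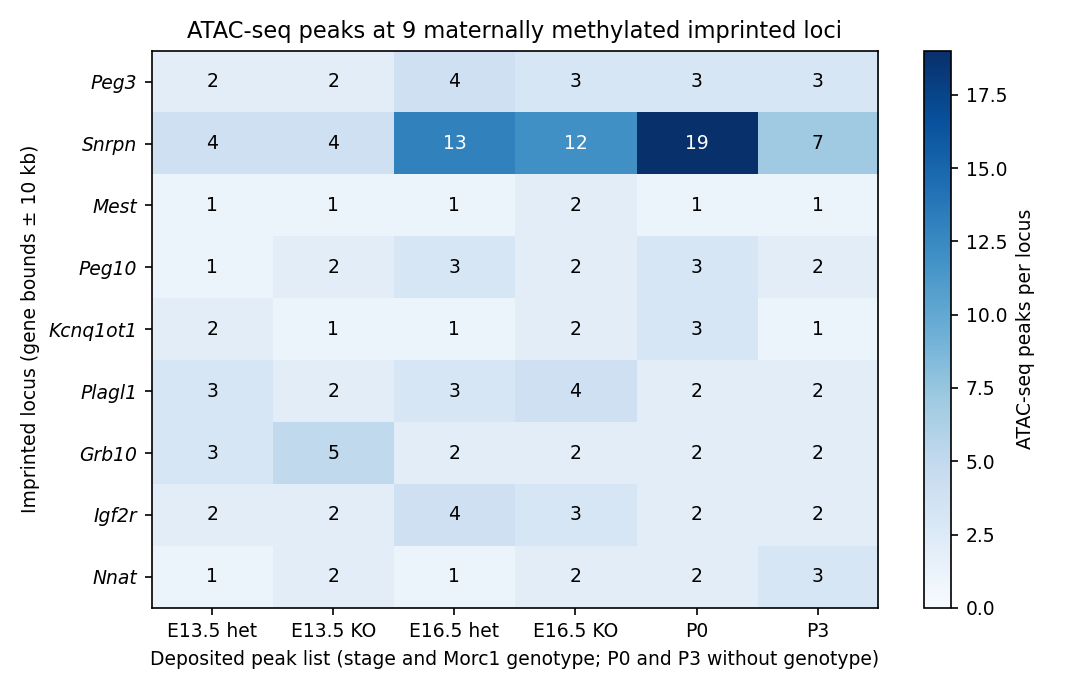
Number of ATAC-seq peaks in each locus (rows, gene bounds plus 10 kb on each side) and each distinct list (columns), with colour from 0 to 19. *Snrpn* goes from 4 at E13.5 to 19 at P0 and 7 at P3, while every other cell holds 1 to 5 peaks.

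The rise in peaks between E13.5 and P0 came mostly from *Snrpn*. Its locus, 487.7 kb long, held 4 peaks in each E13.5 list, 13 in E16.5 het, 12 in E16.5 KO, 19 at P0 and 7 at P3. The P0 count was 4.75 times the E13.5 count, whereas the whole P0 list was 1.66 times the E13.5 het and 1.7 times the E13.5 KO list. The other 8 loci held 15, 17, 19, 20, 18 and 16 peaks in the 6 lists in the same order, so that P0 was 1.2 times E13.5 het and 1.06 times E13.5 KO. From P0 to P3 the *Snrpn* count fell to 0.368 of its value, that of the other 8 loci to 0.889 and the whole list to 0.665. All protein-coding gene windows held 28318 peaks in E13.5 het, 28174 in E13.5 KO, 31820 at P0 and 25422 at P3. Peaks in gene windows thus also changed less than the whole lists, so the flatter course is not particular to the 8 loci.

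Of the 22 *Snrpn* regions, 18 (81.8%) were in neither E13.5 list, against 55% of regions in the genome and 14 of 33 (42.4%) at the other loci. The locus was singled out after its counts were seen, so this share restates its low E13.5 and high P0 counts. Of these 18, 6 were seen at P0 only, 6 at E16.5 and P0, 4 at E16.5, P0 and P3, and 2 at E16.5 only. All 18 lay upstream of the innermost start, as does most of the locus, so their side of it was largely set by how the locus was drawn. Only 4 of the 18 were present at P3. Among the 18, chr7:60132076-60132632 met an outer end of *Gm18908* and chr7:60293344-60293982 one of *Gm30196*. The 2 constant regions in this stretch were chr7:60155150-60155937, which met an outer end of *Gm7367*, and chr7:60244172-60244707, whose 6 centres fell within 35 bp.

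Per length, the 9 loci held 1.86 peaks per 100 kb in E13.5 het (95% Poisson interval 1.12 to 2.9), beside 2.2 over all protein-coding gene windows. At P0 they held 3.62 (2.55 to 4.98), beside 2.47. The intervals cover counting error only. *Snrpn* alone had 0.82 (0.223 to 2.1) in each E13.5 list, with an upper bound below the gene-window density, and 3.9 (2.35 to 6.08) at P0. It was set apart after its counts were seen, so no difference from the gene windows can be read from its intervals. Without *Snrpn*, the other 8 loci had 2.8 (1.57 to 4.62) in E13.5 het, 3.17 (1.85 to 5.08) in E13.5 KO and 3.36 (1.99 to 5.31) at P0. Leaving *Snrpn* out thus moved both E13.5 values by more than 1.5 times.

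**Figure D3:**
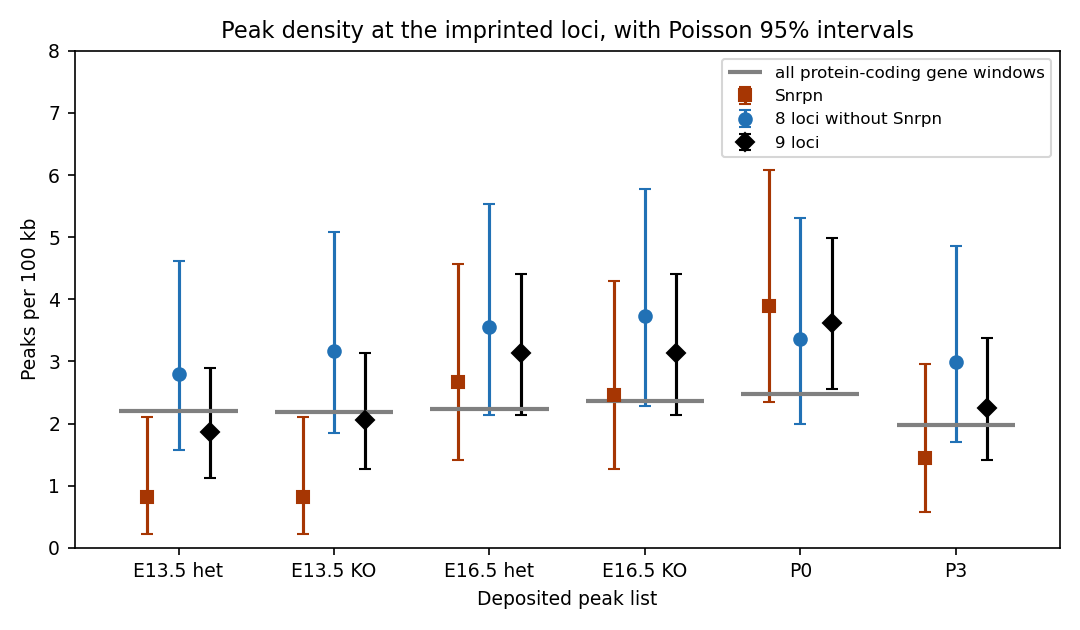
Peaks per 100 kb (y axis) in each distinct list (x axis) for *Snrpn*, the other 8 loci and all 9, with 95% Poisson intervals as bars, and grey lines for all protein-coding gene windows. *Snrpn* starts at 0.82 at E13.5 and reaches 3.9 at P0, while the other 8 loci stay between 2.8 and 3.73.

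Across lists, 13 of 55 regions (23.6%, 95% Wilson interval 14.4 to 36.3) were open in all 6, compared with 16.3% of regions in the genome, which lies inside the interval. Without *Snrpn*, left out after its counts were seen, it was 10 of 33 (30.3%, 17.4 to 47.3), with the genome share just below the interval. Regions of 1 list made up 19 of 55 (34.5%, 23.4 to 47.7), against 33.1% in the genome. Of the 13 constant regions, 6 covered an annotated start of any gene (46.2%, 23.2 to 70.9), against 51.1% in the genome. Within 1000 bp of a start lay 7 (53.8%, 29.1 to 76.8), against 55.7%, and within 2000 bp 10 (76.9%, 49.7 to 91.8), against 57.0%. The genome share lay inside the interval at each distance. Of the other 42 regions, 7 lay within 1000 bp (16.7%, 8.32 to 30.6), against 5.95%, and 8 within 2000 bp (19%, 9.98 to 33.3), against 7.45%. The genome shares include regions far from any gene, whereas the loci were drawn around genes, which by itself raises the share near a start. *Peg10* has no listed start, so its regions, the constant one included, count here as far from a start. The one constant region outside the bounds of the member genes was chr7:6696225-6696749, at the start of the imprinted zinc finger gene *Zim1* in the *Peg3* window, with 6 centres within 24 bp.

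**Figure D4:**
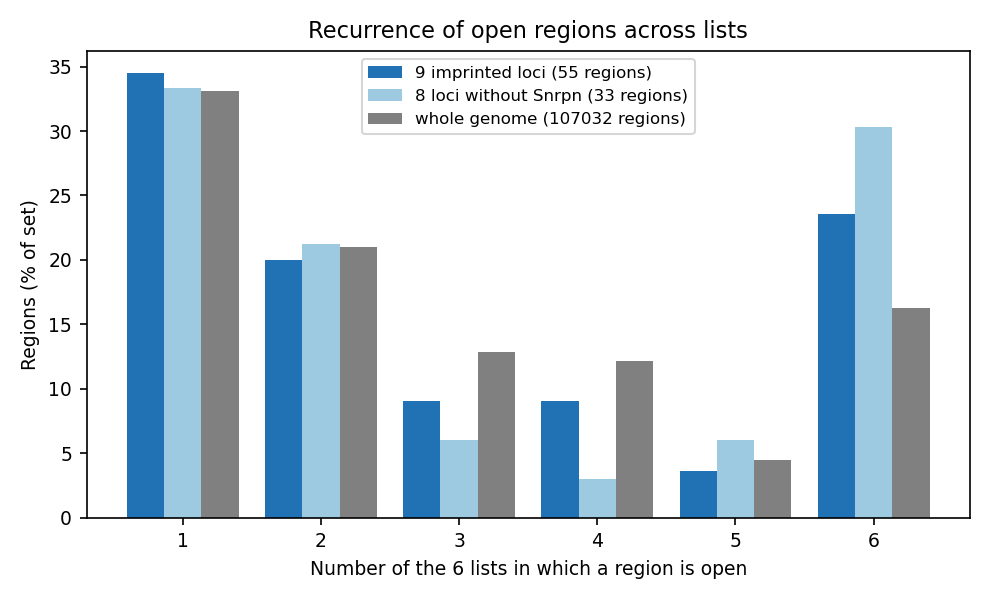
Share of regions (y axis, percent of each set) by the number of lists in which they were open (x axis) for the 9 loci, for the 8 loci without *Snrpn* and for the whole genome. Regions of 1 list are the largest class for all 9 loci (34.5%), and regions of all 6 lists make up 23.6% at the 9 loci and 16.3% in the genome.

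Peaks of the 9 loci recurred at the next stage. Of 19 E13.5 het peaks 14 were found at E16.5 het (73.7%, 51.2 to 88.2), against 56.7% of the whole list. Of 21 E13.5 KO peaks 15 were found at E16.5 KO (71.4%, 50 to 86.2), against 60.6%. The E16.5 peaks were found at P0 in 25 of 32 cases for het (78.1%, 61.2 to 89.0, whole list 78%) and 26 of 32 for KO (81.2%, 64.7 to 91.1, whole list 76.8%). Of 37 P0 peaks 22 persisted at P3 (59.5%, 43.5 to 73.7), against 55.7%, and without *Snrpn* 15 of 18 (83.3%, 60.8 to 94.2). Of 23 P3 peaks 22 had been present at P0 (95.7%, 79.0 to 99.2), against 83.6%. For the 9 loci together the whole-list share lay within the interval in each of these comparisons. Without *Snrpn*, left out after its counts were seen, the P0 share found at P3 had an interval above the whole-list share. *Snrpn* itself went from 19 peaks at P0 to 7 at P3. Leaving it out therefore raises this share, and no difference from the whole list can be read from that interval. In the reverse direction, 14 of 32 E16.5 het peaks (43.8%) had been present in E13.5 het, against 42.7% of the list, and 15 of 32 E16.5 KO peaks (46.9%) in E13.5 KO, against 42%. Of the P0 peaks, 25 of 37 (67.6%) had been present in E16.5 het, against 62.3%, and 26 of 37 (70.3%) in E16.5 KO, against 65.2%.

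Some regions were tied to 1 stage. *Plagl1* had a peak inside the gene, chr10:13107856-13108372, and *Grb10* one at chr11:11973323-11973827, in both E13.5 lists and no other. Together with the *Snrpn* peak described above these were 3 of 55 regions, a pattern held by 6.93% of regions in the genome. Regions in both E16.5 lists alone were also 3 of 55, against 3.4%. They included the upstream *Mest* peak and one beyond the end of *Plagl1* (chr10:13135512-13136047). At *Peg3*, a region of more than 1 stage, chr7:6711183-6711704, was open at P0 and P3 only. This depends on the merging rule. The E16.5 KO peak chr7:6710457-6710957 lies close by, and merging peaks within 500 bp joins them, giving 54 regions in place of 55.

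To see whether loss of *Morc1* alters these loci, het and KO lists were compared at E13.5 and E16.5. At E13.5 the genotypes shared 17 peaks. In het, 2 of 19 peaks (10.5%, 2.94 to 31.4) had no overlap in KO, against 21.3% of the whole list. In KO, 4 of 21 (19%, 7.67 to 40.0) had none in het, against 19.6%. At E16.5 the genotypes shared 25 peaks, and 7 of 32 were private in each (21.9%, 11 to 38.8), against 18.6% of the het and 23.5% of the KO list. All 4 intervals include the whole-list share. Between the E13.5 lists, the centre of a shared peak moved by 15 bp (median) and by 215 bp at most. Between the E16.5 lists the median was 34 bp and the largest shift 407 bp, at the outer start of *Grb10*. The start regions of *Kcnq1ot1*, *Plagl1*, *Igf2r*, *Grb10* and *Airn* were thus present in both genotypes at both ages.

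Private peaks at E13.5 were, in het, one inside *Kcnq1ot1* (chr7:143289091-143289591) and one near the far end of *Plagl1* (chr10:13127240-13127740). The latter region, open in every list except E13.5 KO, was 1 of 55 here, a pattern of 1.13% of regions in the genome. In KO they were 2 far inside *Grb10* (chr11:11942453-11942953 and chr11:11948340-11948840), one in *Sgce* next to *Peg10* (chr6:4738639-4739139) and one at *Blcap* (chr2:157565592-157566092). The *Grb10* and *Sgce* peaks were seen in no other list.

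Private peaks at E16.5 included, in het, the *Peg3* and *Usp29* start peak, a second peak in *Airn* (chr17:12742566-12743066), one inside *Peg10* (chr6:4754771-4755271) that recurred at P0 and P3, and 3 in *Snrpn*. The *Peg3os* peak described above completed the 7. In KO they included the internal *Mest* start (chr6:30737930-30738430), a *Peg3* peak (chr7:6710457-6710957), peaks upstream of *Kcnq1ot1* (chr7:143305834-143306334) and *Plagl1* (chr10:13082206-13082706), the *Blcap* peak and 2 in *Snrpn*. Of the 7 het-only peaks 4 were in no other list, and the other 3 recurred at P0. Of the 7 KO-only peaks 3 were in no other list, and the other 4 recurred at P0. Among these 3, the *Peg3* peak joins the nearby P0 and P3 region when peaks within 500 bp are merged.

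The *Blcap* region in the *Nnat* window, chr2:157565517-157566092, was the one region of the 55 open in both KO lists and in neither het list. *Blcap* is the host gene of *Nnat*, and the region lay 269 bp from its start. It was also open at P0 and P3, where the lists carry no genotype. In the genome 635 regions (0.593%) had both KO and neither het list, and 358 (0.334%) the reverse, of which 0 lay in the 9 loci.

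Neighbouring genes of the imprinted domains, from a list of 28 of which 27 were matched, had a start peak in all 6 lists in 18 cases, beside 55% of protein-coding genes. The 55% covers genes with a listed start only, whereas *Klf14*, *Kcnq1* and *Cdkn1c* were judged by outer ends. *Snurf*, *Hymai*, *Airn* and *Zim1* lie in windows of the 9 loci, so the 18 partly repeat peaks already counted there. These 18 included *Ube3a*, *Ndn*, *Magel2*, *Mkrn3*, *Copg2*, *Cdkn1c*, *Kcnq1*, *Ascl2* and *Slc22a3*. *Phlda2*, a placental growth regulator silenced through *Kcnq1ot1*, had one in both E13.5 lists and none later. *Slc22a18* had a start peak in E16.5 het but not KO, and *Ddc*, the neighbour of *Grb10*, in E16.5 KO but not het. Of 7 other genes at maternally methylated regions, 6 (*Gnas*, *Nespas*, *Zrsr1*, *Mcts2*, *Peg13*, *Inpp5f*) had a start peak in all 6 lists and *Impact* had none in any. *Nespas*, *Peg13* and *Impact* were judged by outer ends.

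Of 13 genes that write, read or protect imprints 10 had a start peak in all 6 lists, beside 55% of protein-coding genes. Among the 10 were *Zfp57*, *Zfp445*, *Trim28* and *Setdb1*, which act together at methylated imprints, and the DNA methyltransferases *Dnmt1*, *Dnmt3a* and *Dnmt3b*. *Ctcfl*, the germ-line paralogue of *Ctcf*, had one from E16.5 on and in neither E13.5 list. *Dppa3*, which shields imprints in the zygote, had a start peak in E13.5 het and P0 only, and *Dnmt3l*, the cofactor of de novo methylation, had none in E13.5 het and P3. *Ctcfl* and *Dppa3* were judged by outer ends.

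At paternally methylated loci, which acquire their mark in the male germ line, 2 of 7 genes (*Rasgrf1* and *Zdbf2*) had a start peak in all 6 lists, against 6 of 9 here and 55% of protein-coding genes. A constant region was found in 4 of 7 gene windows, against 8 of 9 here and 66.3% of protein-coding gene windows. With so few genes these counts do not set either group apart. Of 29 regions 6 were open in all 6 lists (20.7%, 9.85 to 38.4), and this interval overlaps that of the 9 loci. *H19*, judged by its outer ends, had a start peak in E13.5 het but not KO, and *Igf2* had one in E16.5 KO only. *Dlk1* lost its start peak at P3, and *Meg3* had none in any list.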

How the data were processed

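ATAC-seq of male germ cells was deposited by the authors as 1 peak list per group of 2 samples. The authors deposited the chromosome, start and end of each peak (3 columns), so the values are positions in base pairs with no score. Per the submitters' processing notes the tools were bcl2fastq 2.20, cutadapt 1.18, Bowtie2 2.3.4.1, deepTools 3.5.0 and HOMER 4.10, with build mm10. The role of each tool, the peak threshold, the treatment of reads with several matches and any pooling of samples or shift of reads are not given in the sources used here. The read depth is unknown, so a missing peak may be a region below the caller's threshold.

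Loci were drawn from RefSeq outer bounds (GRCm38.p6) plus 10 kb. Peaks overlapping by at least 1 bp were called shared or merged (Python 3.11.15, pandas 2.3.3). This code was tested on simulated data and against bedtools 2.31.1, with equal counts. Shares have 95% Wilson intervals (scipy 1.17.1) and densities exact 95% Poisson intervals, neither of which includes any spread between samples. Start windows came from a RefSeq table that held 8 of 9 members (not *Peg10*) and no entry on chromosome 18; *Snrpn* windows were aligned with Biopython 1.88. All 9 members were named, and other genes came from lists of neighbours, other imprinted genes, imprint factors and cell markers. The members and lists were chosen with earlier results of these data known. *Mestit1* was not matched, and *Apeg3* and *Nespas* were matched as *Peg3os* and *Gnasas1*. The alternatives were other flanks, overlaps, merging distances and start windows, and leaving out each member. The identity of 1 region is not reported here.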

Additional observations from a re-analysis of the deposited data

Results flagged for a closer look

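At 3 loci the difference in peak count between KO and het had opposite signs at E13.5 and E16.5. KO minus het for *Peg10* was 1 at E13.5, and it was -1 at E16.5. For *Kcnq1ot1* and for *Plagl1* the E13.5 difference was -1, and the one at E16.5 was 1. Each value rests on 1 list per group, and the difference between the ages was not tested. Over all 9 loci the E13.5 difference was 2 and the E16.5 difference 0.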

How the results depend on the processing

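Of 134 values recomputed under an alternative, 132 stayed within the counting interval of the reported value, or within 1.5 times of it for a count. With no flank, the share of E16.5 KO peaks found at P0 was 91.3%, against 81.2% with the flank. Leaving out each member in turn gave E13.5 KO densities from 1.78 to 3.17 peaks per 100 kb, the highest without *Snrpn*, against 2.05. The other lists ranged from 1.66 to 2.8 (E13.5 het), 2.87 to 3.55 (E16.5 het), 2.91 to 3.73 (E16.5 KO), 3.36 to 3.9 (P0) and 2.0 to 2.99 (P3). *Snrpn* makes up 487.7 of 1023.4 kb, so the pooled density largely follows it.

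No paired analysis was possible because the files give no values per replicate, only a list for a whole group. Leaving out a replicate and a stricter peak threshold were not run, since the lists hold no values per sample and no scores. Differences in depth between lists cannot be told apart from differences in accessibility.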
